A study of Mus musculus with 12 samples.

Results

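The comparison described here is between the high fat diet and the casein diet in abdominal fat pads of p47phox null mice. It rests on the 6 null arrays among the 12 of the study: 3 pools from null mice on the high fat diet and 3 pools from null mice on casein. All mice were female, on a C57BL/6 genetic background, and were put on their diet at postnatal day 28 for 13 weeks. Wild type mice on the same 2 diets gave the other 6 arrays, again 3 pools for each diet, and serve below for the test of whether the diet difference depended on genotype. The labels name neither the null allele nor the composition of the diets. One protocol in the labels speaks of rats, whereas the organism is given as mouse. How many animals went into a pool is not given in the sources used here, so p-values measure the spread between pools.

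Each value is a log2 value of an Affymetrix array, and the authors had centred every probe set on its median over the 12 arrays. A value of 1 therefore means 2-fold above the middle of the 12 arrays for that gene, and no level of one gene can be set against another. A difference is high fat diet minus casein in null pools on this log2 scale, followed after ± by its standard error (SE), with n = 3 pools for each diet. The comparison covered 18194 genes, each read as the mean of its probe sets. In whole fat pad RNA, fewer cells of a type and less RNA per cell cannot be told apart.

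White fat stores triglyceride in adipocytes, and on a diet rich in fat these cells enlarge. Leptin (Lep) and the growth-associated gene Mest are known to go up with fat mass, and macrophages are known to gather in obese fat and to take up lipid there. The protein p47phox, encoded by Ncf1, is the cytosolic organiser of the phagocyte NADPH oxidase: after phosphorylation it docks on the membrane subunits Cybb and Cyba and lets the complex make superoxide. Fat cells also regenerate active glucocorticoid from its inactive keto form through the enzyme 11β-hydroxysteroid dehydrogenase type 1, the product of Hsd11b1.

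The genotype labels were checked on Ncf1, which has 3 probe sets. For 2 of them every null pool lay below every wild type pool: 1 ran from -0.54 to -0.33 in the 6 null pools against 0.33 to 1.71 in the 6 wild type pools, and the other from -0.27 to -0.16 against 0.16 to 0.83. The third probe set overlapped between genotypes, from -0.15 to 0.03 in null pools and from -0.27 to 0.26 in wild type pools. The labelled tissue could not be checked from levels, because centring removed them, so adipocyte markers can be followed only as differences between pools.

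Several null pools stood apart in genes of tissues other than fat. The median of 29 skeletal muscle genes was 1.66, 0.54 and -0.61 in casein pools 1 to 3 and 3.56, -1.44 and -1.21 in high fat diet pools 1 to 3, so high fat diet pool 1 was the highest. The median of 21 oviduct and uterine epithelium genes was -0.47 in casein pool 1, against 0.79 and 1.06 in the other casein pools and 0.26, 0.82 and 1.36 on the high fat diet. For 18 granulosa, theca and luteal cell genes of the ovary, the medians were -0.04, 0.20 and 0.34 on casein and 0.15, 0.68 and 0.96 on the high fat diet. Liver genes varied within each diet, from -1.16 to 0.60 on casein and from -1.31 to 0.91 on the high fat diet.

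**Figure D1:**
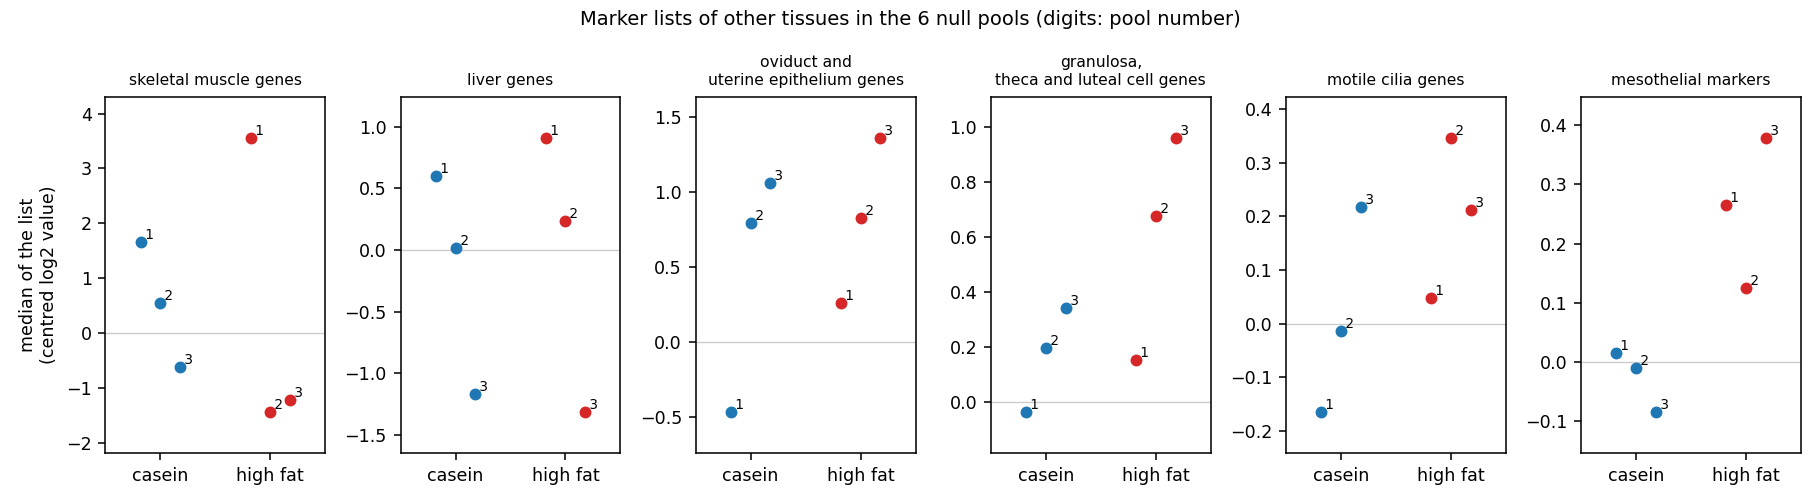
Median centred log2 value of 6 marker lists of other tissues (one panel each, vertical axes differ) in the 3 null casein pools (blue) and the 3 null high fat diet pools (red), with the pool number beside each point. Muscle genes were highest in high fat diet pool 1 (3.56), oviduct and uterine genes lowest in casein pool 1 (-0.47), and mesothelial markers did not overlap between the diets.

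No gene passed the test between diets in null pools. With limma and Benjamini-Hochberg adjustment over 18194 genes, 0 genes had an adjusted p under 0.05 (0%). The smallest adjusted p was 0.163, for Hsd11b1, and the next was 0.9996. At an unadjusted p under 0.05 there were 727 genes (4.0%), of which 376 lay higher on the high fat diet (2.07%) and 351 lower (1.93%). Without null high fat diet pool 1, the pool highest in muscle genes, 1147 genes had an unadjusted p under 0.05 and again 0 passed after adjustment. That was the largest count when 1 null pool was left out. The count was 527 and 567 without high fat diet pools 2 and 3, and 619, 727 and 788 without casein pools 1 to 3. Testing the 34958 probe sets one by one also called 0, with 1392 at an unadjusted p under 0.05.

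The differences were small for most genes. The median absolute difference was 0.077 and the median SE 0.11, and the median standard deviation (SD) among pools was 0.11 for casein and 0.11 for the high fat diet. The 95% interval of the difference lay within 2-fold either way for 17212 genes (94.6%) and within 1.5-fold for 15466 genes (85.0%). In 1927 genes (10.6%) the pools of the diets did not overlap, 890 of them higher on the high fat diet (4.89%) and 1037 lower (5.70%). A difference above 2-fold was seen in 40 genes, 25 up (0.137%) and 15 down (0.0824%), and 11 of the 40 had pools that did not overlap.

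The call of 0 genes depended on how the arrays were weighted. When limma estimated a weight for each array, 942 genes passed, 529 higher and 413 lower. The pools of the diets did not overlap in 443 of the 942, against 10.6% of all genes, and overlapped in the rest. All 24 genes chosen below for their small p were among the 942. Those 24 were chosen in these same pools, so that is no independent support. The estimated weights ran from 0.50 to 9.50, with null high fat diet pool 2 at 9.50 and null casein pool 2 at 3.48, and the estimation did not converge. Leaving out wild type casein pool 3 left the null pools as they were and gave 1 call, the cytochrome P450 gene Cyp2f2. It read -0.09, 0.09 and 0.10 on casein and 1.36, 1.05 and 1.40 on the high fat diet, a difference of 1.23 ± 0.84 with all 12 arrays (unadjusted p = 0.169) and an adjusted p of 0.0150 without that pool.

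**Figure D2:**
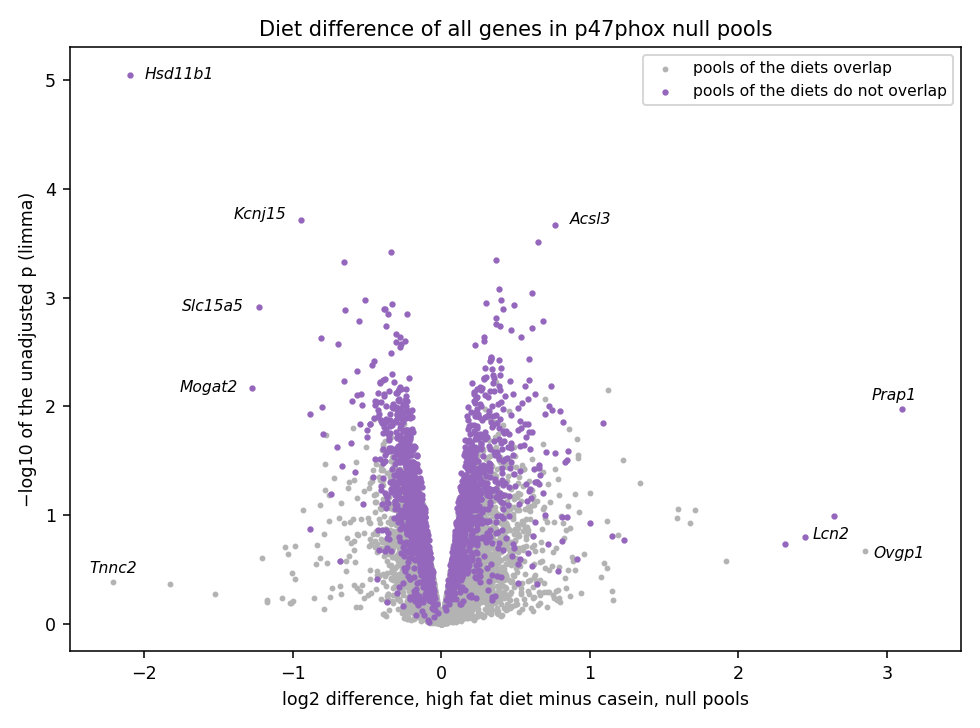
Each point is 1 of 18194 genes, with the log2 difference between the diets in null pools on the horizontal axis and −log10 of the unadjusted limma p on the vertical axis. Genes whose pools do not overlap between diets are violet. Hsd11b1 stands alone at the upper left with a difference of -2.09, and the genes with the largest positive differences, such as Ovgp1 and Lcn2, have larger p-values.

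Among the genes the comparison turns on, Hsd11b1 lay lowest on the high fat diet and Acsl3 had the smallest p of those that lay higher. Their promoters are shown to give the sequence context of these genes, as the 250 bases before the RefSeq transcription start in assembly GRCm38.p6. Capitals mark matches, on either strand, to a CCAAT box (CCAAT) and a GC box (GGGCGG). The search also covered a TATA box (TATAAA) and a C/EBP-type site (TTGCNNAA), for which neither window held a match. The motifs were chosen after the sequences had been seen.
Hsd11b1, chr1:193242361-193242610, minus strand: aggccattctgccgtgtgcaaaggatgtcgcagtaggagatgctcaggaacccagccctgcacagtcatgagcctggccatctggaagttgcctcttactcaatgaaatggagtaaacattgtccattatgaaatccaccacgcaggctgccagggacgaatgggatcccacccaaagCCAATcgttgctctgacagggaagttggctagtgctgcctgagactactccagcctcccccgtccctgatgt
Acsl3, chr1:78657575-78657824, plus strand: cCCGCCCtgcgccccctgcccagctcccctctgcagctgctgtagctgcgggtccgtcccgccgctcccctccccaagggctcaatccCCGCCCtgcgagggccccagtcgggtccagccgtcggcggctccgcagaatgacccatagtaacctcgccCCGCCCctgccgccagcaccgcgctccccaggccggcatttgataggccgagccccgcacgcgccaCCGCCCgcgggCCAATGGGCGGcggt
The Hsd11b1 window held 1 CCAAT box, starting at base -72, and no GC box. The Acsl3 window held 5 GC boxes and a CCAAT box starting at base -15, which touches the GC box next to it. Of 32851 promoter windows of this length, 33.8% held a CCAAT box, 32.7% a GC box, 12.4% a TATA box and 9.56% a C/EBP-type site. A match of letters is a description and shows no binding.

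Hsd11b1 gave the largest difference downward among genes whose pools did not overlap. Its values were 0.69, 1.04 and 1.48 in the null casein pools and -1.40, -0.79 and -0.88 in the null high fat diet pools. Every high fat diet pool lay below every casein pool, with a gap of more than the spread within either diet. The difference was -2.09 ± 0.26, with a 95% interval from -2.67 to -1.51, an unadjusted p of 8.94e-06 and an adjusted p of 0.163 in limma. The adjusted p was 0.00334 with array weights and between 0.0720 and 0.919 under the other alternatives, so the gene passed under that alternative alone.

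The wild type pools showed a difference of the same sign in Hsd11b1, from 0.49, 0.67 and 0.92 on casein to -0.49, -1.14 and -1.37 on the high fat diet. The wild type difference was -1.69 ± 0.26, and the null difference minus the wild type difference was -0.41, with a 95% interval from -1.23 to 0.42 and an unadjusted p of 0.299. Differences between genotypes within that interval cannot be resolved with these pools.

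Other genes of glucocorticoid action gave smaller differences, apart from Lcn2, described below. Of the 17 members of the glucocorticoid list, which holds Hsd11b1 itself, all were measured and 0 passed the test. The pools of 2 did not overlap downward, Hsd11b1 and Pdk4, and of 1 upward, Lcn2, against 5.70% and 4.89% of all genes. Pdk4, a kinase that restrains pyruvate oxidation, read 0.31, 0.53 and 0.54 on casein and -0.29, -0.50 and -0.49 on the high fat diet. The groups of Pdk4 were well apart, yet the shared SE of the 4 groups was wide, and its difference was -0.89 ± 0.55 (unadjusted p = 0.134). The receptor Nr3c1 differed by 0.08 ± 0.16, its target Fkbp5 by 0.29 ± 0.18, the leucine zipper target Tsc22d3 by 0.12 ± 0.13 and Per1 by 0.05 ± 0.19. H6pd, which supplies the cofactor of the Hsd11b1 enzyme, differed by -0.16 ± 0.14, and Hsd11b2, the enzyme of the opposite reaction, by -0.37 ± 0.72.

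**Figure D3:**
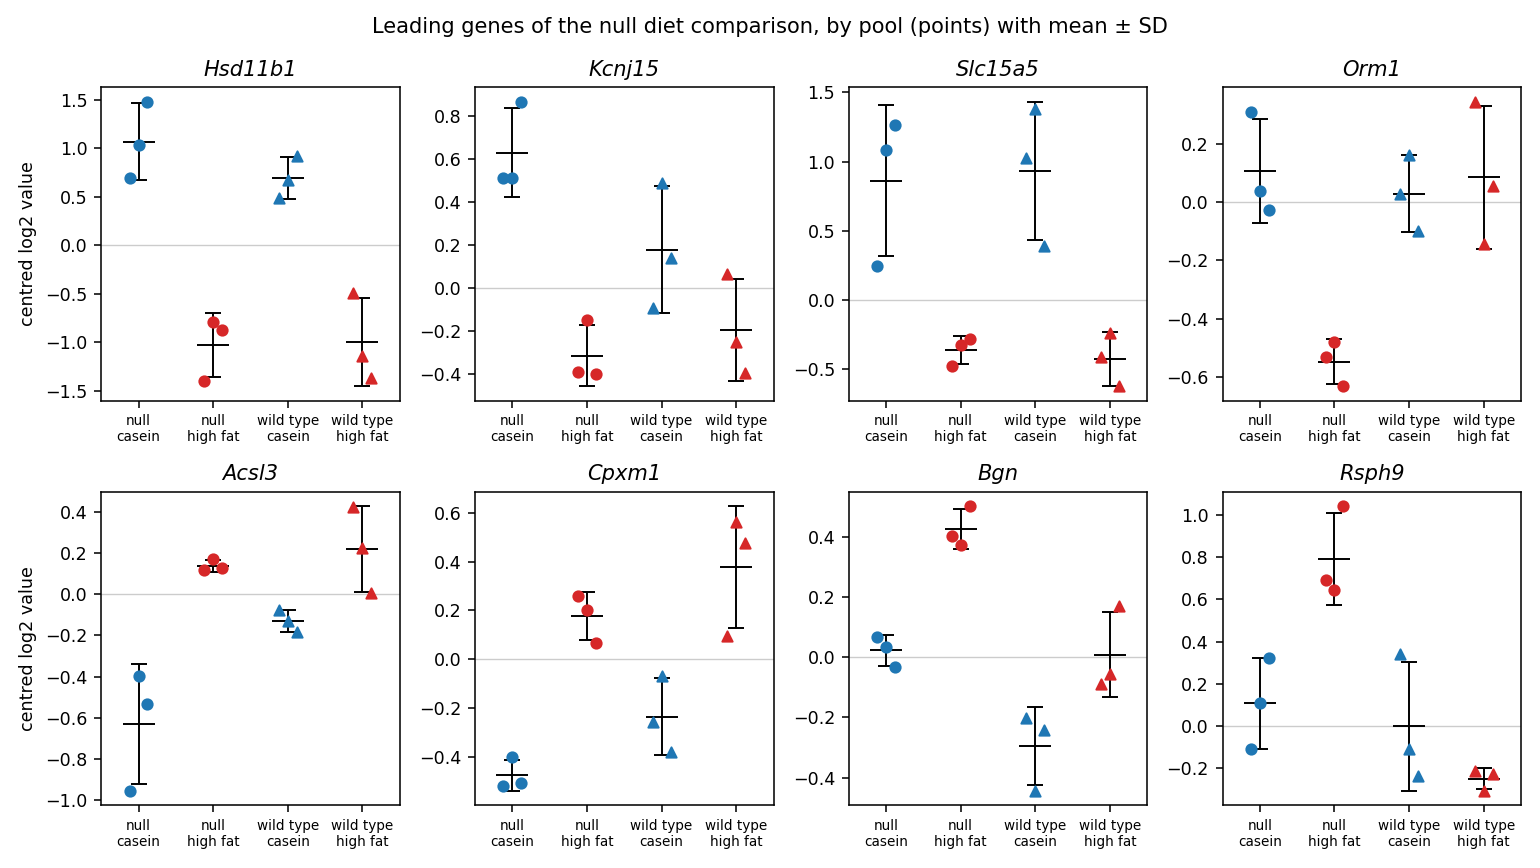
Centred log2 values of 8 genes with small p in the null comparison, by pool (points: circles null, triangles wild type; blue casein, red high fat diet), with the group mean and SD in black and a separate vertical axis for each gene. In null pools the diets do not overlap for any of the 8; in wild type pools Hsd11b1, Slc15a5, Acsl3, Cpxm1 and Bgn also do not overlap.

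The genes named next are the 12 with the smallest p in each direction, all with an adjusted p of 0.9996 apart from Hsd11b1. Their values are given as a description, since small p-values chose them. Kcnj15, an inwardly rectifying potassium channel, read 0.51, 0.51 and 0.87 on casein and -0.39, -0.15 and -0.40 on the high fat diet. Its difference was -0.94 ± 0.17, and its 3 probe sets gave -1.45, -0.23 and -1.14, all of 1 sign. Slc15a5, a member of the peptide transporter family, read 0.24, 1.08 and 1.26 on casein and -0.48, -0.32 and -0.29 on the high fat diet, a difference of -1.23 ± 0.28. Casein pool 1 was the lowest of its 3 casein pools and still lay above all pools on the high fat diet.

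Orm1, the acute phase protein orosomucoid, read 0.31, 0.04 and -0.03 on casein and -0.53, -0.48 and -0.63 on the high fat diet, a difference of -0.66 ± 0.13. The related copies Orm2 and Orm3, looked up after that value was seen, differed by -0.81 ± 0.20 and -0.54 ± 0.19, and the pools of neither overlapped between diets. Probes can cross-react among these near-identical copies, so the share of each in the 3 readings is uncertain.

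Among the other genes that lay lower, Slc5a3, the sodium-coupled myo-inositol transporter, differed by -0.64 ± 0.15, and Osbpl1a, an oxysterol-binding protein family member, by -0.33 ± 0.08. Gbp6, a guanylate-binding protein induced by interferon, read 0.45, 0.50 and 0.28 on casein and -0.25, -0.10 and -0.08 on the high fat diet, a difference of -0.55 ± 0.13. Il4i1, an amino acid oxidase secreted by immune cells, differed by -0.33 ± 0.07 and Irak1bp1, a binding partner of the kinase Irak1, by -0.36 ± 0.08. The remaining members of this set were Sycp3, a protein of the meiotic synaptonemal complex, at -0.51 ± 0.11, Angel1 at -0.38 ± 0.09 and Als2cl at -0.38 ± 0.09.

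Among genes that lay higher, Acsl3, a long-chain acyl-CoA synthetase, read -0.96, -0.40 and -0.53 on casein and 0.12, 0.17 and 0.13 on the high fat diet. The difference was 0.77 ± 0.14, and its 3 probe sets gave 0.96, 0.38 and 0.97. The high fat diet pools lay close together, whereas casein pool 1 was the lowest of the 3 casein pools. Cpxm1, a secreted member of the carboxypeptidase family, read -0.52, -0.40 and -0.51 on casein and 0.26, 0.20 and 0.07 on the high fat diet, a difference of 0.65 ± 0.12. The wild type difference of Cpxm1 was 0.61 ± 0.12, of like size.

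Biglycan (Bgn), a small proteoglycan of the matrix, read 0.07, 0.03 and -0.03 on casein and 0.40, 0.37 and 0.50 on the high fat diet. Its difference was 0.40 ± 0.09, and its 3 probe sets gave 0.40, 0.38 and 0.43. Rsph9, a radial spoke protein of motile cilia, read -0.11, 0.11 and 0.32 on casein and 0.69, 0.64 and 1.04 on the high fat diet, a difference of 0.68 ± 0.16. The ciliary gene lay in the same direction as the oviduct and ovary markers described above, whose part in its difference was not tested.

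Ddah2, which degrades the nitric oxide synthase inhibitor dimethylarginine, differed by 0.39 ± 0.08 and Dact1, a Dishevelled-binding regulator of Wnt signalling, by 0.37 ± 0.07. Rnf112, a RING finger protein, differed by 0.61 ± 0.13 as a mean, but its probe sets gave 1.07, 0.81 and -0.04 and so disagreed. Scrn1 differed by 0.30 ± 0.07, Ttc23 by 0.42 ± 0.10, Paqr3 by 0.37 ± 0.09 and Banp by 0.37 ± 0.09. Dynlt1f, a dynein light chain gene with near-identical copies, differed by 0.49 ± 0.11, and its signal may come from any of them.

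Markers of mature adipocytes all leaned lower on the high fat diet in null pools. All 19 measured members had a negative difference (50.1% of all genes did), with a median of -0.23 against -0.00 over all genes, and 0 of 19 passed the test. The pools of 4 did not overlap, all lower, against 5.70% of all genes. The marker medians were 0.10, -0.07 and -0.18 in casein pools 1 to 3 and -0.06, -0.31 and -0.55 in high fat diet pools 1 to 3, so the diets overlapped at the level of the list. Leaving out 1 pool gave list medians from -0.35 (without high fat diet pool 1) to -0.11 (without high fat diet pool 3), with -0.14 without casein pool 1. With the muscle and ovary medians of each array as covariates, the adipocyte median was -0.08.

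Of the 4 adipocyte markers without overlap, 3 act in lipid release. Aqp7, the channel through which glycerol leaves the adipocyte, read 0.63, -0.15 and -0.11 on casein and -0.38, -0.46 and -0.90 on the high fat diet, a difference of -0.70 ± 0.27. Pnpla2, the lipase that begins triglyceride breakdown, read 0.51, 0.23 and 0.33 against 0.08, -0.21 and -0.18, a difference of -0.46 ± 0.20. The transcription factor Cebpa differed by -0.27 and hormone-sensitive lipase (Lipe) by -0.09. For both Aqp7 and Pnpla2 the gap between the lowest casein pool and high fat diet pool 1 was narrow.

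Lipolysis and lipid droplet genes had a median of -0.26, with 13 of 15 below 0 (50.1% of all genes) and 5 of 15 without overlap, all lower (5.70% of all genes). Besides Aqp7, Pnpla2 and Lipe, these were Abhd5, the activator of the first lipase, at -0.30 and the receptor Hcar2, which curbs lipolysis, at -0.58 ± 0.25. Hcar1, the lactate receptor that also curbs lipolysis, differed by -0.78 ± 0.32 with overlap, since casein pool 1 (1.03) stood well above casein pools 2 and 3 (0.01 and 0.03). Leaving out 1 pool gave list medians from -0.39 (without high fat diet pool 1) to -0.11 (without high fat diet pool 3), with -0.14 without casein pool 1, and the covariates gave -0.06.

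Single adipocyte genes followed whatever their value were close to 0 or overlapped. Adiponectin (Adipoq) differed by -0.16 ± 0.18, the adipogenic receptor Pparg by -0.21 ± 0.15 and the insulin-responsive glucose transporter Slc2a4 by -0.11 ± 0.16. The fatty acid transporter Cd36 was not one of these and is named for its small p within the adipocyte list. Cd36 differed by -0.52 ± 0.25 with overlapping pools, and its 3 probe sets gave -0.52, -0.48 and -0.55.

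Genes that usually follow fat mass did not lie higher on the high fat diet in null pools. Leptin (Lep) read -0.13, -0.74 and -0.71 on casein and -0.49, -0.71 and -0.79 on the high fat diet, a difference of -0.13 ± 0.28 with a 95% interval from -0.76 to 0.49. Mest read -0.04, -1.33 and -1.47 on casein and -0.80, -0.77 and -1.33 on the high fat diet, a difference of -0.02 ± 0.46. The natriuretic peptide clearance receptor Npr3 read -0.02, -1.34 and -1.48 against -1.11, -1.67 and -1.90, a difference of -0.61 ± 0.36. In all 3 genes casein pool 1 was the highest of the 6 null pools. With the arrays quantile normalised again, the difference had the other sign in Lep (0.15) and Mest (0.46).

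Over the 13 measured genes of this kind, 12 of 13 lay below 0 (50.1% of all genes) and the median was -0.13, whereas the wild type median was 0.39 with 12 of 13 above 0. Sfrp5, a secreted Wnt inhibitor of fat, differed by -0.03 ± 0.53 in null pools. Leaving out 1 pool gave null medians from -0.29 (without high fat diet pool 1) to -0.03 (without high fat diet pool 3), with -0.06 without casein pool 1. With the muscle and ovary covariates the null median turned to 0.06.

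Enzymes of fatty acid synthesis showed no common direction. Of 27 measured, 10 lay above 0 and 17 below, with a median of -0.09. The pools of 3 did not overlap upward (4.89% of all genes) and of 2 downward (5.70%). Fatty acid synthase (Fasn) read -0.31, 0.26 and 0.32 on casein and -0.20, -0.09 and -0.03 on the high fat diet, a difference of -0.20 ± 0.22, and the desaturase Scd1 differed by -0.06 ± 0.11. The desaturase Scd2 read -1.02, -0.39 and -0.36 on casein and 0.08, 0.06 and 0.18 on the high fat diet, a difference of 0.70 ± 0.23 against 0.76 ± 0.23 in wild type pools. Acss2, which activates acetate, differed by 0.48 and the desaturase Fads1 by 0.41 ± 0.23, both without overlap. The probe sets of Fads1 gave 0.73 and 0.10 and so differed in size. Acetyl-CoA carboxylase Acaca at -0.38 and Thrsp at -0.25 lay lower without overlap.

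Genes of cholesterol synthesis leaned upward by small amounts, with 17 of 19 above 0 (49.9% of all genes) and a median of 0.09. The pools of 2 of 19 did not overlap, both higher (4.89% of all genes). These 2 were Insig1, the sterol sensor that holds back the pathway, at 0.52 ± 0.27 and squalene synthase Fdft1 at 0.19 ± 0.10. The probe sets of Fdft1 gave 0.39, 0.003, 0.01 and 0.37. Insig1 was -1.01 in casein pool 1 against -0.08 and -0.00 in the other casein pools. Without casein pool 1 the list median was 0.03.

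Mitochondrial genes leaned lower by small amounts in most members. Of 39 respiratory chain subunits, 38 had a negative difference and 14 did not overlap, all lower, against 5.70% of all genes; the differences ran from -0.25 to 0.01 and their median was -0.12. The complex I subunit Ndufb3 read 0.06, -0.05 and -0.10 on casein and -0.28, -0.29 and -0.25 on the high fat diet, a difference of -0.25 ± 0.10. The electron carrier Cycs differed by -0.25 ± 0.14 and the ATP synthase subunits Atp5a1 by -0.22 ± 0.11 and Atp5b by -0.22. The probe sets of Atp5a1 gave -0.46, -0.10 and -0.10. The median of the list was -0.03, 0.01 and 0.07 in the casein pools and -0.10, -0.12 and -0.13 in the high fat diet pools, which did not overlap.

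Genes of fatty acid oxidation and the citric acid cycle had a median of -0.15, with 25 of 27 below 0 (50.1% of all genes) and 7 without overlap, all lower (5.70% of all genes). The trifunctional protein subunit Hadhb read 0.02, 0.18 and 0.05 on casein and -0.25, -0.23 and -0.29 on the high fat diet, a difference of -0.34 ± 0.16. The isocitrate dehydrogenase subunit Idh3a differed by -0.31 ± 0.16 and the malate dehydrogenase Mdh2 by -0.13 ± 0.10. With the muscle and ovary medians as covariates, the medians were 0.01 for this list and -0.05 for the respiratory chain. In wild type pools the medians were -0.25 and -0.14 respectively, of the same sign.

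Brown and beige adipocyte genes varied widely among pools. Of 17 measured, 16 lay below 0 (50.1% of all genes), the median was -0.34, and 1 did not overlap, in the lower direction (5.70% of all genes). The list medians were -0.48, 0.33 and 0.19 on casein and -0.25, -0.20 and -0.07 on the high fat diet, so the diets overlapped. Leaving out 1 pool gave medians from -0.77 (without casein pool 1) to -0.08 (without casein pool 3). Ucp1, the uncoupling protein of brown fat, was -4.89, 1.41 and 0.86 on casein and -2.53, -1.05 and -1.60 on the high fat diet, a difference of -0.85 ± 1.51. Casein pool 1 was the lowest of the 6 null pools in Ucp1, and also in Cidea, a lipid droplet protein abundant in brown fat, at -2.29.

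**Figure D4:**
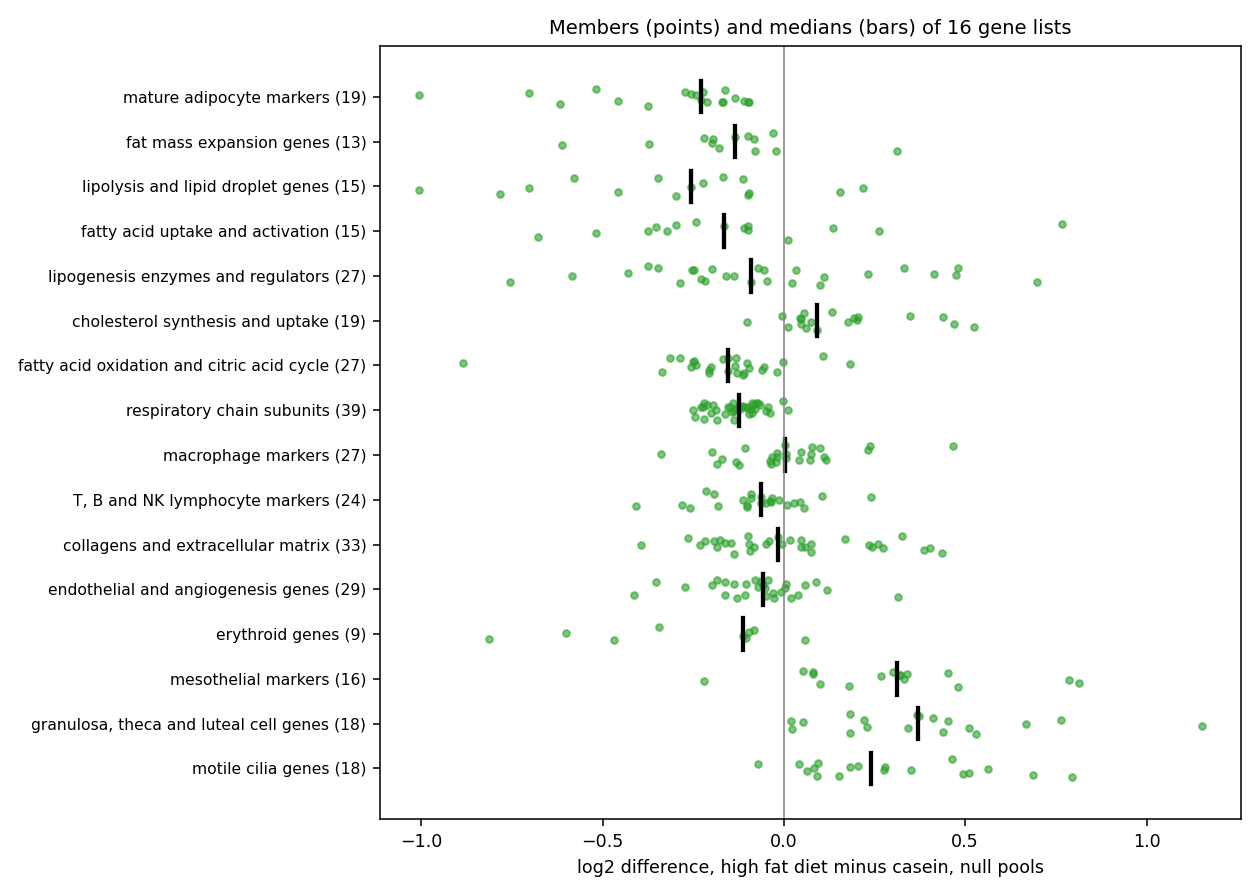
Log2 difference between the diets in null pools for the members of 16 gene lists (green points, number measured in brackets), with each list's median as a black bar. The adipocyte, lipolysis and mitochondrial lists lie mostly below 0, and the mesothelial, granulosa and cilia lists mostly above it; no member of any list passed the test.

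Macrophage markers were evenly split in null pools. Of 27 measured, 14 lay above 0 and 13 below, the median was 0.00, and 1 did not overlap, in the lower direction (5.70% of all genes). Adgre1, a surface antigen of mature macrophages, read 0.16, -0.02 and 0.02 on casein and -0.16, 0.08 and -0.27 on the high fat diet, a difference of -0.17 ± 0.18. Itgax (CD11c) differed by -0.12 ± 0.38 and Cd68 by 0.01 ± 0.27. The member without overlap was the chitinase-like Chil3, at 0.21, 0.34 and 0.27 on casein and 0.05, -0.24 and -0.00 on the high fat diet, a difference of -0.34 ± 0.13.

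Genes of lipid-associated macrophages had a median of -0.08, with 7 of 20 above 0 (49.9% of all genes). The pools of 3 of the 20 did not overlap upward (4.89% of all genes) and of 2 downward (5.70%). The lipid receptor Trem2 differed by -0.03 ± 0.18, with a 95% interval from -0.42 to 0.35. The chemokine Ccl2, which draws monocytes, read 0.48, -0.03 and -0.30 on casein and -0.05, -0.00 and -0.15 on the high fat diet, a difference of -0.12 ± 0.30. The cytokines Tnf and Il6 differed by -0.10 ± 0.13 and 0.13 ± 0.11.

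NADPH oxidase subunits did not separate the diets in null pools. Of the 14 listed genes 9 were measured, and none of the 9 was free of overlap (10.6% of all genes were). The catalytic subunit Cybb differed by -0.02 ± 0.18, its partner Cyba by 0.21 ± 0.21 and Ncf1 itself by -0.02 ± 0.16. The hydrogen peroxide-forming Nox4 differed by -0.29 ± 0.22, and its probe sets gave -0.01 and -0.56. Of 26 antioxidant and NRF2 target genes, 14 lay above 0 and the median was 0.03. The pools of 2 did not overlap upward (4.89% of all genes) and of 2 downward (5.70%). Keap1, the repressor of NRF2, differed by 0.23 ± 0.08, heme oxygenase (Hmox1) by -0.00 ± 0.09 and the peroxidase Gpx4 by -0.34 ± 0.15.

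T, B and NK cell markers had 18 of 24 members below 0 (50.1% of all genes), a median of -0.06 and 6 without overlap, all lower (5.70% of all genes). The median was -0.11 without high fat diet pool 2, -0.01 with array weights and 0.01 with the muscle and ovary covariates. Granzyme A (Gzma), a protease of killer lymphocytes, read 0.05, 0.35 and 0.26 on casein and -0.10, -0.18 and -0.28 on the high fat diet, a difference of -0.41 ± 0.14. The T cell receptor subunit Cd3e differed by -0.19 ± 0.08 and the killer cell receptor Klrd1 by -0.28 ± 0.19. Of 30 interferon-stimulated genes, 2 did not overlap, both lower, near the share over all genes (5.70%): Gbp2 at -0.19 ± 0.09 and Gbp6. Of the 30, 19 lay above 0 (49.9% of all genes).

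Collagens and other matrix genes were split, with 15 of 33 above 0 and a median of -0.02. The pools of 3 did not overlap upward (4.89% of all genes) and of 4 downward (5.70%). Besides Bgn, the fibrillar collagen Col5a3 read -0.13, -0.15 and -0.12 on casein and -0.77, -0.33 and -0.48 on the high fat diet, a difference of -0.39 ± 0.11. Col1a1 differed by -0.04 ± 0.29 and Col3a1 by -0.15 ± 0.17. Of 19 matrix metalloproteinases and inhibitors, 10 lay above 0 and 9 below, with a median of 0.01. The pools of 4 did not overlap, all higher (4.89% of all genes): Mmp2 at 0.41 ± 0.26, Mmp14 at 0.38 ± 0.19, Mmp11 at 0.52 and Mmp12 at 0.34.

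Among stress genes, 4 of 27 members of the unfolded protein and heat shock list did not overlap, all higher, against 4.89% of all genes. The transcription factor Atf3 read -0.33, -0.33 and -0.48 on casein and 0.19, 0.06 and -0.06 on the high fat diet, a difference of 0.44 ± 0.18. The chaperones Hspa1a and Dnajb1 differed by 0.43 ± 0.20 and 0.18 ± 0.07. The endoplasmic reticulum chaperone Hspa5 differed by -0.03 ± 0.12, and the list median was 0.03. The clock gene Cry1 read -0.01, 0.11 and 0.01 against 0.28, 0.27 and 0.34, a difference of 0.26 ± 0.09, and the median over 19 clock genes was 0.06.

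Insulin signalling genes had a median of -0.03, with 9 of 21 above 0. Trib3, a pseudokinase that binds Akt, read 0.23, 0.03 and 0.01 on casein and -0.43, -0.17 and -0.18 on the high fat diet, a difference of -0.35 ± 0.11. Of 29 endothelial genes, 21 lay below 0 and the median was -0.06. Rgcc differed by -0.41 ± 0.17 and the endothelial coreceptor Eng by -0.18 ± 0.09, while Pecam1 differed by -0.06 ± 0.16.

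Markers of other tissues gave the largest positive medians of the 41 lists in null pools. All 18 measured granulosa, theca and luteal genes lay above 0, with a median of 0.37, and 2 of 18 did not overlap, both higher (4.89% of all genes). One was Hsd17b1, the ovarian enzyme that makes estradiol, which read -0.22, 0.22 and 0.24 on casein and 0.27, 1.88 and 1.55 on the high fat diet. Inhbb, an inhibin and activin subunit, was the other, at 0.53 ± 0.23. Leaving out 1 pool gave granulosa medians from 0.15 (without high fat diet pool 3) to 0.61 (without high fat diet pool 1), with 0.19 without casein pool 1. Oocyte genes had a median of 0.35, from 0.19 (without high fat diet pool 3) to 0.57 (without high fat diet pool 1), and -0.01 with the muscle and ovary covariates. Cilia genes had a median of 0.24, from 0.14 (without casein pool 1) to 0.38 (without casein pool 3), and 0.09 with the covariates. The oviduct median was 0.32, from -0.25 (without casein pool 1) to 0.75 (without casein pool 3), and -0.45 with the covariates. For mesothelial markers, of the lining of fat and organs, the median was 0.31, with 5 of 16 without overlap upward (4.89% of all genes) and 1 downward (5.70%). It was 0.20 without casein pool 1, 0.20 without high fat diet pool 3 and 0.15 with array weights.

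The mesothelial transcription factor Wt1 read -0.07, 0.37 and 0.07 on casein and 0.90, 0.80 and 1.11 on the high fat diet, a difference of 0.81 ± 0.56. Mesothelin (Msln) read 0.02, -0.02 and -0.11 on casein and 0.42, 0.13 and 0.37 on the high fat diet, a difference of 0.34 ± 0.24. Beyond the medians with covariates given above, the part of such tissue in the adipocyte, lipolysis and mitochondrial medians was not tested.

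Many of the largest differences lay in genes lowest in casein pool 1 or in muscle genes. Of the 25 genes more than 2-fold higher, 21 had casein pool 1 as the lowest null pool. These 25 were chosen by a rise over casein, which favours a casein pool as the lowest, and the share over all genes was not computed. Of the 15 more than 2-fold lower, 8 were members of the muscle list, which held 29 of the 18194 genes. Ovgp1, the oviduct-specific glycoprotein, read -3.09, 3.09 and 4.09 on casein and 3.74, 4.13 and 4.77 on the high fat diet, a difference of 2.85 ± 2.16. The iron-binding secretory protein Ltf read -2.44, 2.19 and 2.53 against 2.95, 2.98 and 3.30. For both genes casein pools 2 and 3 were far nearer to the high fat diet pools than to casein pool 1.

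Lipocalin 2 (Lcn2), an iron-siderophore carrier of inflamed and secretory epithelia, read -0.66, 0.66 and 2.58 on casein and 3.67, 3.05 and 3.22 on the high fat diet, a difference of 2.45 ± 1.61 without overlap. Prap1, a secreted protein of gut and uterine epithelium, read -0.50, 2.07 and 0.27 against 3.38, 4.77 and 3.0, a difference of 3.10 ± 1.0 that stayed between 2.54 and 3.83 when any 1 pool was left out. On the lower side, the fast muscle troponin Tnnc2 read 2.25, 0.87 and -1.13 on casein and 3.91, -5.06 and -3.49 on the high fat diet, a difference of -2.21 ± 2.58. Mogat2, an enzyme of triglyceride synthesis from monoacylglycerol, was not of that kind: it read -0.51, 0.06 and 0.55 against -1.75, -1.40 and -0.57, a difference of -1.27 ± 0.38 without overlap.

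The test of whether the diet difference depended on genotype called 0 of 18194 genes in limma, with a smallest adjusted p of 0.789 and 1113 genes (6.12%) at an unadjusted p under 0.05, 492 of them positive (2.70%) and 621 negative (3.41%). The interaction is the null difference minus the wild type difference. In wild type pools alone 0 genes passed as well, with a smallest adjusted p of 0.0746 and 1384 genes (7.61%) at an unadjusted p under 0.05. The wild type pools of the diets did not overlap in 2172 genes (11.9%), 1287 higher (7.07%) and 885 lower (4.86%). Leaving out wild type casein pool 2 gave 10 interaction calls and leaving out wild type casein pool 3 gave 1.

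The genes with the smallest interaction p differed in opposite directions in the genotypes. Choosing by that p favours genes of opposite sign, so these directions are a description and no independent support. Tst, a mitochondrial sulfurtransferase, differed by 0.40 ± 0.22 in null pools and by -1.37 ± 0.22 in wild type pools, an interaction of 1.78. Dusp14, a phosphatase of MAP kinases, differed by 0.54 ± 0.17 and -0.70 ± 0.17, and Scrn1 by 0.30 ± 0.07 and -0.17 ± 0.07. In the other direction, Sycp3 differed by -0.51 ± 0.11 and 0.36 ± 0.11, Il4i1 by -0.33 ± 0.07 and 0.15 ± 0.07, and Lpgat1, an acyltransferase of phospholipid remodelling, by -0.23 ± 0.12 and 0.56 ± 0.12. The adjusted interaction p was 0.789 for Sycp3 and none of these genes passed.

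For most fat mass genes the differences lay above 0 in wild type pools and near or below 0 in null pools, and no interaction passed. Mest differed by 1.56 ± 0.46 in wild type pools, and its interaction was -1.58 (unadjusted p = 0.036). Lep differed by 0.63 ± 0.28 in wild type pools and Npr3 by 0.59 ± 0.36, with interactions of -0.76 and -1.20. The sign in null pools was not stable for Mest and Lep. Leaving out 1 pool gave null differences from -0.29 to 0.43 for Mest and from -0.24 to 0.064 for Lep. With the muscle and ovary covariates the null median of the fat mass genes was 0.06. The macrophage marker Adgre1 differed by 0.46 ± 0.18 in wild type pools, with an interaction of -0.63. The list medians were 0.08 for adipocyte markers, 0.39 for fat mass genes and 0.30 for macrophage markers in wild type pools, against -0.23, -0.13 and 0.00 in null pools. For markers of other tissues, the granulosa medians were -0.56 for wild type and 0.37 for null pools, and the oviduct medians were -0.80 and 0.32. Without null casein pool 1 the null oviduct median was -0.25, of the wild type sign. Their part in the other interactions was not tested.

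**Figure D5:**
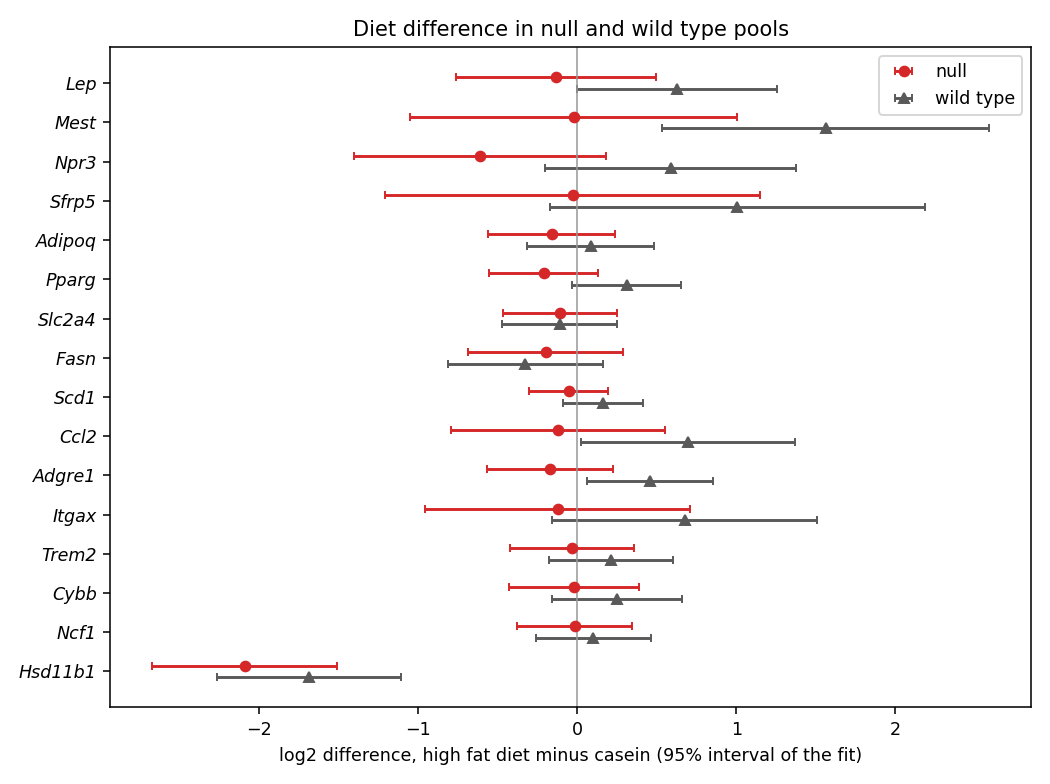
Log2 difference between high fat diet and casein with its 95% interval from the fit, for 16 genes in null pools (red circles) and wild type pools (grey triangles). Hsd11b1 lies below 0 in both genotypes; in the values as deposited, Lep, Mest and Adgre1 lie near or below 0 in null pools and above 0 in wild type pools, and with the arrays quantile normalised again Lep and Mest lie above 0 in null pools too, and no interaction passed the test.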

How the data were processed

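Abdominal fat pad RNA (8 µg of total RNA per array, biotin-labelled) was measured on 12 Affymetrix arrays, 1 per pool. Per the submitters' processing notes, the authors used GCOS and RMA, with no version stated. The values deposited by the authors are on a log2 scale of the RMA kind; base 2 was assumed, as RMA gives it, since no label states it. The authors had centred each probe set on its median over the 12 arrays (0 of 45101 departed by more than 1e-06), which removes levels and signal over background. For arrays, their number limits the precision.

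The platform annotation gave 1 gene for 34958 probe sets, several for 932 and none for 9211; current symbols came from RefSeq (GRCm38.p6), which matched 34754. Of the 18194 genes, 9012 had more than 1 probe set and were read as their mean. Group means of the 4 groups were fitted to all 12 arrays with limma 3.58.1 in R 4.3.3 (8 residual and 2.5 prior degrees of freedom, two-sided p-values, Benjamini-Hochberg over 18194 genes, threshold 0.05); the script was tested on simulated data. An exact permutation test of 3 against 3 pools cannot go below 0.1 and was not used for genes. No set test was run: the 41 lists (930 genes, 843 measured) are given by counts and medians. The genes named are the 12 of smallest p in each direction (predicted genes left out), up to 4 of smallest p in each list, 16 followed genes, 3 each way for the interaction, and, added after the data were seen, the 10 largest differences each way and some genes of the named pathways. The comparison and the lists were chosen with earlier results of these data known. No array carries a date or batch. Pool numbers pair the groups only by name: deviations of same-numbered null pools correlated at 0.55, -0.01 and 0.59. Alternatives covered the samples fitted, probe set summary, normalization, filter, weights, moderation, pairing, covariates and left-out pools.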

Additional observations from a re-analysis of the deposited data

How the results depend on the processing

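With the 6 null arrays only, other summaries of probe sets, further normalization, the filter on flat genes, robust moderation and the covariates, 0 genes passed between diets in null pools. Array weights gave 942 calls; the cause was not tested. Leaving out 1 pool at a time gave 0 to 1 calls (1 without wild type casein pool 3) and, for the interaction, 0 to 10. The number of genes at an unadjusted p under 0.05 was 727, and it was 4525 with array weights, 1107 without the 3 pools high in muscle or liver genes and 345 after the filter, which tested fewer genes. Pool numbers could be entered as a replicate block: 0 genes passed between diets and 0 for the interaction, with a smallest adjusted p of 0.919 for the former. Of the null high fat diet pools, 2 of 3 correlated best with the casein pool of their own number.

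Of 115 genes followed, 86 kept their sign under every alternative run, including the 24 of smallest p. Those 24 were chosen by p in these same pools, so their kept sign is a description and no independent support. Fitting the null arrays alone, robust moderation, the replicate block and leaving out a wild type pool cannot change a null difference. The cause of each change of sign in the other 29 was not tested. With the medians of muscle and ovary genes as covariates, Adipoq differed by 0.037, Cd68 by -0.011, Cyba by -0.046, Cybb by 0.074, Hsd17b1 by -0.017, Lep by 0.11, Mest by 0.29, Mmp11 by -0.00044, Ncf1 by 0.073, Ovgp1 by -0.24, Pecam1 by 0.054, Per1 by -0.11, Pparg by 0.0074, Sfrp5 by 0.22 and Slc2a4 by 0.15. With array weights, Adgre1 differed by 0.037, Col3a1 by 0.040, Hmox1 by 0.092, Mest by 0.39, Ncf1 by 0.0069, Per1 by -0.091 and Tnf by 0.096. After further quantile normalization, Hmox1 differed by 0.0020, Lep by 0.15, Mest by 0.46, Per1 by -0.051 and Sfrp5 by 0.031; with arrays centred on their median, Hmox1 differed by 0.0032. With the probe set of largest variance, Hspa5 differed by 0.016, Ncf1 by 0.059 and Trem2 by 0.11. The 3 pools high in muscle or liver genes were wild type casein pool 3, wild type high fat diet pool 2 and a null pool. The null pool was high fat diet pool 1, so for a null difference this alternative equals leaving out that pool alone. Without these 3 pools, Col1a1 differed by 0.13, Cybb by 0.022, Hmox1 by 0.011, Hspa5 by 0.065, Itgax by 0.00090, Ncf1 by 0.012 and Nr3c1 by -0.050.

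Leaving out 1 pool at a time, the difference ran from -0.32 to 0.061 for Adipoq, -0.29 to 0.094 for Ccl2, -0.10 to 0.15 for Cd68, -0.26 to 0.13 for Col1a1, -0.11 to 0.029 for Cybb, -0.10 to 0.054 for Hmox1, -1.16 to 0.067 for Hsd11b2, -0.13 to 0.065 for Hspa5, -0.25 to 0.00090 for Itgax, -0.24 to 0.064 for Lep and -0.29 to 0.43 for Mest. It ran from -0.036 to 0.012 for Ncf1, -0.46 to 0.0033 for Nox4, -0.050 to 0.22 for Nr3c1, -0.16 to 0.020 for Pecam1, -0.17 to 0.20 for Per1, -0.17 to 0.031 for Scd1, -0.34 to 0.15 for Sfrp5, -0.27 to 0.034 for Slc2a4, -0.088 to 0.053 for Trem2 and -2.86 to 0.29 for Ucp1. Hsd11b1 ran from -2.28 to -1.89 and was -3.26 after further quantile normalization.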
